A study of Mus musculus with 6 samples.

Results

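Cfap53, Gcnt2, Olfr1033, Spata13 and Zbtb8b are 5 of the 18476 genes measured by bulk RNA sequencing in injured mouse femoral arteries. They were chosen by symbol because an earlier analysis of these same libraries had shown them lower with vasostatin-2 and little spread within each group. Their levels in this comparison are therefore given as a description, without a test. What the choice did not use is the length each gene was quantified with, its transcript entries, its neighbours on the chromosome and the genes of its family, and these make up most of what follows.

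The arteries came from wild-type C57BL/6 mice. Every vessel had been injured with a wire and was taken on day 3, after saline (3 libraries) or vasostatin-2 (3 libraries) had been applied around it; vasostatin-2 is a peptide cut from chromogranin A. The submitters describe the libraries of a group as biological replicates, and all 6 belong to 1 batch. The labels name vascular smooth muscle cells, but the RNA was taken from the whole injured vessel, and no uninjured artery is part of the comparison.

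The 5 genes belong to unrelated families. Cfap53 encodes a protein of motile cilia and centriolar satellites that is needed for left-right body asymmetry. Gcnt2 encodes the Golgi enzyme that adds branches to poly-N-acetyllactosamine chains on glycoproteins and glycolipids, turning the linear blood group i antigen into the branched I antigen. Spata13, also called Asef2, is a guanine nucleotide exchange factor that switches on Rac and Cdc42 in cell migration and binds the tumour suppressor APC. Zbtb8b belongs to the BTB zinc finger proteins, many of which bind DNA and repress transcription. Olfr1033 is named as an odorant receptor, a family of G protein-coupled receptors whose main site is the olfactory sensory neuron.

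By the coordinates the table gives on GRCm38.p6, Gcnt2 lies on the plus strand of chromosome 13 from 40859768 to 40960892, Olfr1033 on the plus strand of chromosome 2 from 86020640 to 86044808, Spata13 on the plus strand of chromosome 14 from 60469148 to 60764556 and Zbtb8b on the minus strand of chromosome 4 from 129425765 to 129446969. Cfap53 lies on another chromosome, given with its values, so no 2 of the 5 share a locus.

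Because the 5 genes were lower together, the 150 bases before annotated starts were compared where a promoter entry was read. RefSeq promoters (GRCm38.p6) of 3 of the 5 genes were read. Cfap53 was left out of this comparison, and Olfr1033 had no promoter entry. The promoter entries give 3 starts for Gcnt2, 2 for Spata13 and 1 for Zbtb8b. Both Spata13 windows lie inside the gene, past its RefSeq start of 60485168. The Zbtb8b window also lies inside its gene, whose RefSeq coordinates reach 129446969 on the 5′ side. Those outer starts were not read. The windows are written 5′ to 3′ on the strand of the gene, and capitals mark a match to a searched motif. The windows shown are chr13:40859618-40859767, chr13:40886608-40886757 and chr13:40917484-40917633 (plus strand) for Gcnt2, chr14:60634555-60634704 and chr14:60732754-60732903 (plus strand) for Spata13 and chr4:129440819-129440968 (minus strand) for Zbtb8b.
Gcnt2 first start: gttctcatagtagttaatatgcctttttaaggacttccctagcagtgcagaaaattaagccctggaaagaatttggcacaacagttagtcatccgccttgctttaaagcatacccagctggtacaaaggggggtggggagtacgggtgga
Gcnt2 second start: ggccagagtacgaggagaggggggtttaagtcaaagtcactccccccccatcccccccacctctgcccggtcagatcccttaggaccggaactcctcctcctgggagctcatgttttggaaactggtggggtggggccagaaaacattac
Gcnt2 last start: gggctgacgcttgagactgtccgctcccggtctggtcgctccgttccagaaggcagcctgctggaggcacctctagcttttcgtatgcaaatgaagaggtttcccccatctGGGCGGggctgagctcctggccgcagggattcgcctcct
Spata13 first start: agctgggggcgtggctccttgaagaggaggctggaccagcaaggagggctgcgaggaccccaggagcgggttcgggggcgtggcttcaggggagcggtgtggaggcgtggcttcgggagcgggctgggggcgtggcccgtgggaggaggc
Spata13 second start: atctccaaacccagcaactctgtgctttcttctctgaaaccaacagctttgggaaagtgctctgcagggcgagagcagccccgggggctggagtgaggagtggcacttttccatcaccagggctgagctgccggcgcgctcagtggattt
Zbtb8b: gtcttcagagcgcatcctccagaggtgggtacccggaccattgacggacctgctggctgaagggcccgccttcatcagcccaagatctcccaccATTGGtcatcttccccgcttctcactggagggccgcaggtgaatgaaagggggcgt

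Searched on both strands, the motifs were the GC box GGGCGG, the CCAAT box CCAAT, the TATA box TATAAA, the AP-1 site TGANTCA, the E-box CACGTG and the hypoxia response core ACGTG, which lies within the E-box. Of all 32851 RefSeq windows of this length, 28.6% held the GC box, 24.5% the CCAAT box, 7.57% the TATA box, 4.24% the AP-1 site, 4.30% the E-box and 11.2% the hypoxia core. The last Gcnt2 window held 1 GC box and the Zbtb8b window held 1 CCAAT box, read on the opposite strand. The other 4 windows held no match, so within these windows no searched motif was found in more than 1 of the 3 genes. Whether Cfap53 or Olfr1033 shares a motif with them was not tested. The windows also differed in base composition, with a G and C content of 46.0%, 59.3% and 62.7% for Gcnt2, 73.3% and 58.0% for Spata13 and 61.3% for Zbtb8b, beside a median of 54.0% over all windows. A match is a description of these letters and not a sign of binding.

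Levels are given as CPM, the estimated count relative to the scaled library total, with replicates 1, 2 and 3 in order. The libraries held between 19333730 and 20105995 estimated counts, so depth differed little. Cfap53 lies on the plus strand of chromosome 18 from 74283100 to 74359984. It was at 247, 262 and 252 CPM with saline and at 176, 159 and 169 CPM with vasostatin-2. Every treated library lay below every control, with a smallest gap between the groups of 70.5 CPM. The means were 254 ± 8.08 and 168 ± 8.38 CPM (SD, n = 3 each), so the treated level was 66.3% of the control level, a log2 fold change of −0.59 (SE 0.071). These values rest on between 3183 and 5079 estimated counts per library.

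Olfr1033 was at 223, 246 and 251 CPM with saline and at 161, 140.4 and 155 CPM with vasostatin-2. The lowest control again stood above the highest treated library, by 62.7 CPM. Its means were 240.1 ± 14.7 and 152 ± 10.5 CPM (SD, n = 3 each), with a log2 fold change of −0.66 (SE 0.084).

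Gcnt2 was at 71.2, 71.0 and 79.1 CPM with saline and at 50.6, 48.0 and 49.9 CPM with vasostatin-2. Its treated libraries had a coefficient of variation of 2.71%, the smallest of the 5 genes in that group, while saline replicate 3 stood above the other controls. The means were 73.8 ± 4.60 and 49.5 ± 1.34 CPM (SD, n = 3 each), with a log2 fold change of −0.58 (SE 0.07).

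Zbtb8b was at 82.2, 77.3 and 86.8 CPM with saline and at 58.3, 45.8 and 48.7 CPM with vasostatin-2. Here vasostatin-2 replicate 1 was the highest treated library, and the groups still did not overlap. The means were 82.1 ± 4.74 and 50.9 ± 6.53 CPM (SD, n = 3 each), with a log2 fold change of −0.69 (SE 0.10). Spata13, the least abundant of the 5, was at 31.2, 32.3 and 30.0 CPM with saline and at 22.3, 18.9 and 18.3 CPM with vasostatin-2. Its means were 31.2 ± 1.15 and 19.8 ± 2.18 CPM (SD, n = 3 each), with a log2 fold change of −0.65 (SE 0.096), and it too was highest in replicate 1 among the treated libraries.

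**Figure D1:**
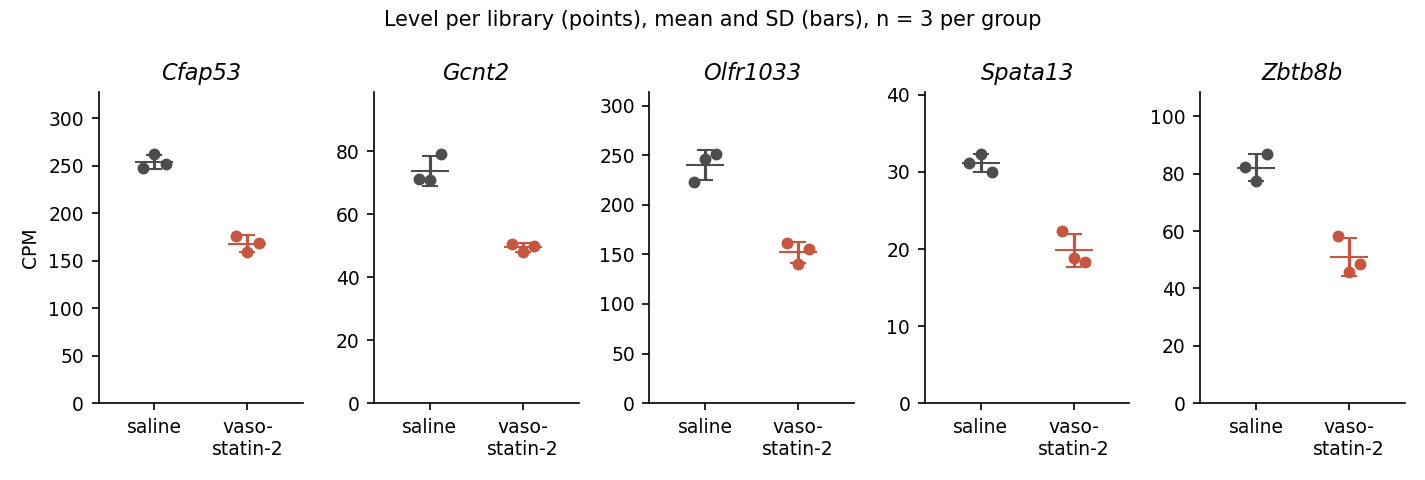
Level in CPM of each of the 5 genes (1 panel a gene, each with its own axis from 0) in the 3 saline and the 3 vasostatin-2 libraries; points are libraries, and bars give the mean and SD. In every panel the lowest saline point stands above the highest vasostatin-2 point.

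The groups thus did not overlap in any of the 5 genes, a pattern the choice of the genes fixed. Over the whole table it held for 978 of 14557 genes tested, or 6.72%, in the lower direction. The quasi-likelihood test of edgeR, adjusted by Benjamini-Hochberg over the 14557 genes, called 0 of them (0%), and the lowest adjusted p of any gene was 0.198. Below an unadjusted edgeR p of 0.05 lay 561 lower genes (3.85%) and 479 higher ones (3.29%). limma-voom also called 0 genes. DESeq2 called 113, of which 64 were lower (0.440%); all 5 genes are among these, from which nothing is read since the same contrast chose them. The treated level as a share of the control level ranged only from 62.0% for Zbtb8b to 67.1% for Gcnt2 on the CPM scale. On the deposited TPM scale, which also corrects for length, it ranged from 61.6% for Zbtb8b to 66.0% for Gcnt2, with no overlap between groups. In whole tissue, fewer cells of a type and less RNA per cell cannot be told apart.

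Genes chosen for a similar shift and little spread keep similar proportions in all libraries, so the ratios of their counts are given as a description only. Set against Cfap53 in the same library, Olfr1033 was at 90.6%, 93.8% and 99.6% with saline and at 91.3%, 88.1% and 91.8% with vasostatin-2. Gcnt2 was at 28.9%, 27.1% and 31.4% with saline and at 28.8%, 30.1% and 29.5% with vasostatin-2. Zbtb8b ranged from 28.8% to 34.5% and Spata13 from 10.8% to 12.7%. In each of these 4 ratios the groups overlapped. Such a ratio compares 2 genes within a library and says nothing of either alone. With the group means removed, the Pearson r of log2 CPM over the 6 libraries was positive in 9 of the 10 pairs. It ran from −0.03 for Gcnt2 with Spata13 to 0.86 for Cfap53 with Olfr1033, as a description.

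By deposited TPM, which divides by the length each gene was quantified with, Olfr1033 was the most abundant of the 5. It was at 189 ± 11.1 with saline and 119 ± 7.83 with vasostatin-2 (SD, n = 3 each). Cfap53 followed at 84.7 ± 1.56 and 55.8 ± 2.77. The order of these 2 genes depends on length. In CPM the mean of Cfap53 was above that of Olfr1033 in both groups. Cfap53 was quantified with a length 2.91 times its longest annotated transcript, as described below. Zbtb8b and Gcnt2 lay close together, at 37.8 ± 3.72 and 36.8 ± 3.32 with saline and at 23.3 ± 2.97 and 24.2 ± 0.757 with vasostatin-2, so their order was not resolved by the spread over libraries. Spata13 was lowest, at 10.8 ± 0.451 and 6.76 ± 0.677.

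Each gene in the table pools a list of transcript entries. Identifiers starting with URS come from RNAcentral, a collection of non-coding RNA sequences, and stand beside curated and predicted RefSeq transcripts. Of the entries of Cfap53, 1 of 4 was from RNAcentral, and the others were 2 curated RefSeq transcripts, 1 of them non-coding, and 1 predicted model. Gcnt2 had 4 of 7 from RNAcentral and 3 curated. Olfr1033 had 1 of 4, beside 1 curated transcript and 2 models. Spata13 had 10 of 22, beside 2 curated transcripts and 10 models, and Zbtb8b had 1 of 6, beside 1 curated transcript and 4 models. All 5 genes therefore have such an entry, as do 9461 of the 18476 genes in the table (51.2%). The presence of such an entry was thus common and did not set the 5 genes apart.

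A second property of the 5 genes was that their counts were not whole numbers in any of the 6 libraries. That was so for 25.6% of all genes and for 30.7% of those tested, while 65.6% of all deposited counts were exactly whole. A count that is not whole can arise where reads that also fitted elsewhere were given to the gene in part. What made the counts of the 5 genes non-whole was not tested. The sources used here do not give the counting tool. If 2 genes share such reads with nobody else, the fractions of their counts add up to a whole number. In a search added after the data had been seen, 632 of 4737 such genes (13.3%) had a partner whose fractions completed theirs in every library within 0.015 of a count. Among them were the pairs of close relatives Alyref and Alyref2, C1s1 and C1s2, and Mmp3 and Mmp10. None of the 5 genes had a single partner of this kind.

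Sequence shared with other annotated genes was then counted directly. GENCODE M21 transcripts of each gene were cut into all 50-base stretches, and each was looked up among the transcripts of all other genes on both strands. Cfap53 shared none of 2692 stretches and Zbtb8b none of 6482. Spata13 shared 8 of 9230 (0.0867%), spread over 7 other genes. Olfr1033 shared 252 of 4307 (5.85%), and 248 of these were with Olfr1032, the family member next to it in name, on the same strand. Gcnt2 shared 588 of 6979 (8.43%), all with 2 transcripts of the opposite strand that overlap it, 342 with A730081D07Rik and 246 with Gm31683. No stretch was shared between any of the 5 genes. As the strand setting of the counting is not given, reads of Gcnt2 and of these antisense transcripts cannot be told apart within the shared stretches. Whether reads of Cfap53 and Zbtb8b also fitted elsewhere was not tested further, since the sequences of the RNAcentral and predicted entries were not used here.

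The deposited count and FPKM of a gene give the length with which it was quantified: the count divided by the FPKM and by the library's total count. This implied length is an effective length, somewhat below the full transcript. In 1644 genes with a single transcript entry matched to GENCODE it was shorter than the transcript by a median of 55 bases (interquartile range 47 to 121). For a gene with several entries it is a mean over those entries, weighted by the abundance assigned to each, so it bears on which entries carried the counts. It could be computed for 13187 genes with at least 20 estimated counts in every library. Of these, 13061 were matched to GENCODE M21 by Ensembl gene identifier, or by symbol where the identifier found no match. The ratio of implied length to the longest GENCODE transcript had a median of 0.943 over those genes, with 0.426 and 1.15 as its 5th and 95th percentiles.

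Cfap53 stood far outside the annotation. Its implied length was between 6067 and 6071 bases in the 6 libraries, while its longest GENCODE transcript, a nonsense-mediated decay transcript that matches the non-coding RefSeq entry, has 2086 bases. The protein-coding transcript has 1888. The ratio of 2.91 was above that of 99.4% of the genes with a ratio. A mean over the 2 curated RefSeq entries, taken at the lengths of their GENCODE counterparts, cannot exceed 2086 bases. If the implied length is a mean over entries, as assumed here, a longer entry took part of the count, and the remaining entries are the RNAcentral one and the predicted model. Their lengths were not used here. An implied length over 1.5 times the longest GENCODE transcript was also found in 37 of 1864 genes with only 1 entry, beside 257 of 11197 with several, so such an excess does not need a second entry. Which entry carried the counts of Cfap53 was not resolved.

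Zbtb8b also exceeded its annotation, by less. Its implied length of 4410 to 4418 bases was longer than its longest protein-coding transcript (3323 bases) and than its longest GENCODE transcript of any kind (4214 bases), a ratio of 1.05 that was above 92.0% of genes. Its curated RefSeq transcript has 3288 bases, and the lengths of the RNAcentral entry and of the 4 predicted models were not used here.

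The implied lengths of the other 3 genes lay within their annotated range. Gcnt2 was at 4067 to 4133 bases, among its curated transcripts of 3929, 4038 and 4352 bases. Spata13 was at 5700 to 6067 bases, between its curated transcripts of 5469 and 7517 bases. Olfr1033 was at 2573 to 2591 bases, between GENCODE transcripts that run from 316 to 3973 bases. For these 3 genes the implied length does not single out any kind of entry.

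**Figure D2:**
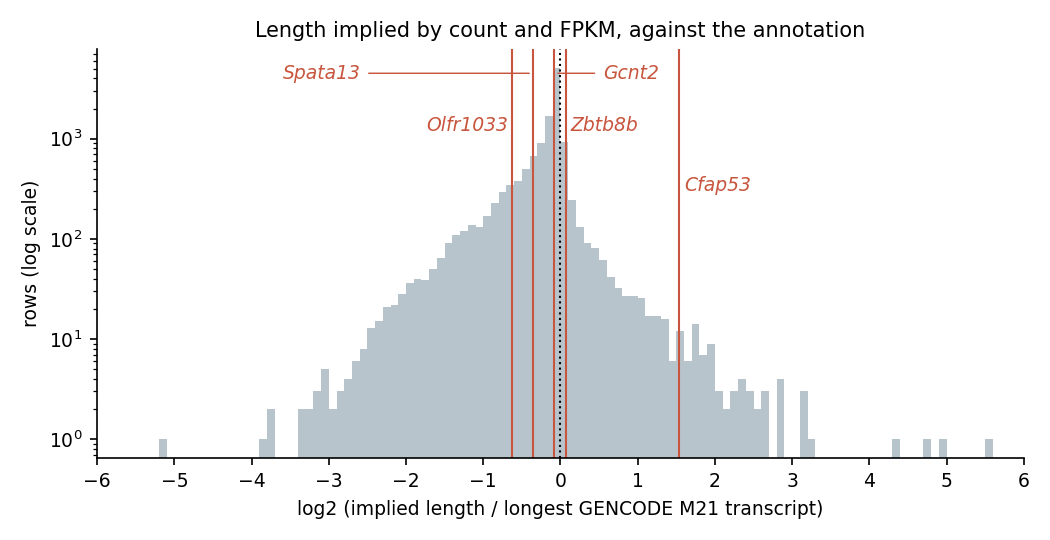
Histogram (log count axis) of the log2 ratio of implied length to the longest GENCODE M21 transcript, over 13061 genes; red lines mark the 5 genes and the dotted line a ratio of 1. Cfap53, at a ratio of 2.91, is in the sparse right tail, while the other 4 genes lie between 0.650 and 1.05.

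Whether the mixture of transcripts differed between the groups was compared next, as implied length was not the measure that chose the genes. With 3 against 3 libraries the exact permutation test cannot go below a two-sided p of 0.1, so no such difference could pass 0.05. Gcnt2 was at 4068, 4067 and 4087 bases with saline and at 4097, 4133 and 4115 bases with vasostatin-2. The groups did not overlap, and the treated mean was longer by 1.01% (4115 ± 18.3 against 4074 ± 11.5 bases, SD, n = 3 each; exact permutation p = 0.1, adjusted over the 5 genes 0.250). Over all 13187 genes, 9.81% showed no overlap in implied length, in either direction.

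Cfap53 also showed no overlap, but its difference was only 0.0376% (exact permutation p = 0.1, adjusted 0.250). Rounding of the deposited FPKM allows up to 0.0190% in the library with the lowest value, and its part in the difference was not tested. In Olfr1033 the groups overlapped, with means of 2578 ± 6.42 and 2586 ± 6.97 bases (SD, n = 3 each; exact permutation p = 0.200, adjusted 0.333). Spata13 varied most, with 5828, 5700 and 6067 bases in saline and 5977, 5855 and 5915 bases with vasostatin-2, so the saline libraries alone spanned the treated ones (exact permutation p = 0.700, adjusted 0.700). Zbtb8b differed by −0.0537% (exact permutation p = 0.500, adjusted 0.625). In all 5 genes the difference in length, at most 1.01%, was small beside the difference in level.

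**Figure D3:**
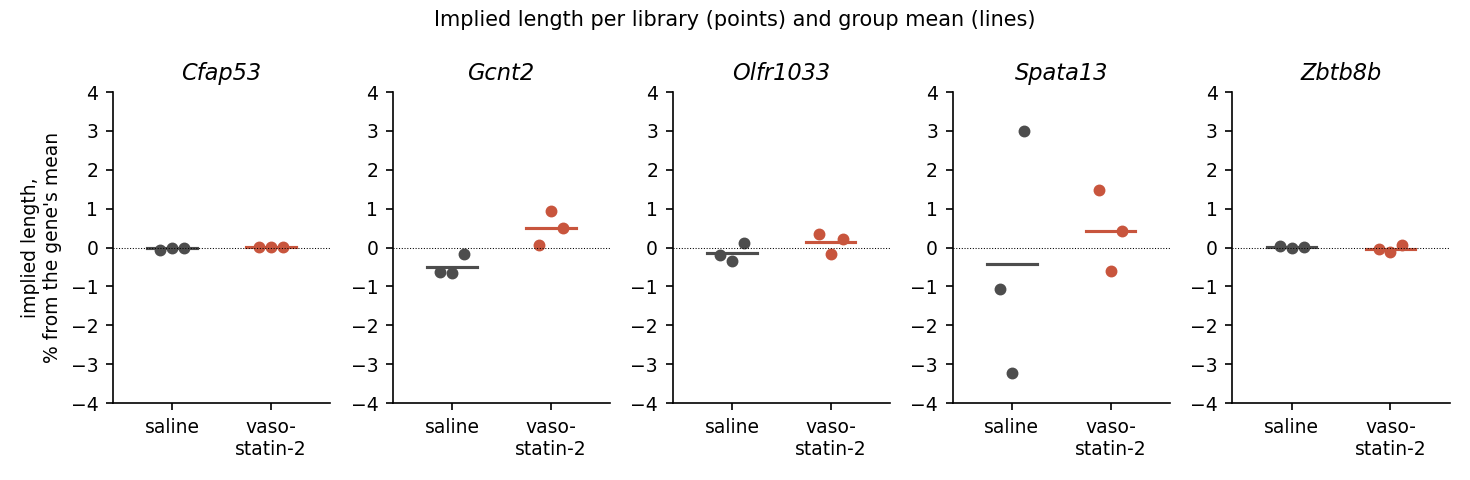
Implied length in each library as a percentage difference from the mean of that gene over the 6 libraries (points), with the mean of each group (lines); all panels share 1 scale. Cfap53 and Zbtb8b are flat, Gcnt2 is higher in all 3 vasostatin-2 libraries by 1.01% on average, and Spata13 spreads most within saline.

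Cfap53 was set beside other genes of motile cilia. Of 68 such genes in the table, 30 passed the filter on low counts. None was called, 1 was lower and 1 higher at an unadjusted p of 0.05, and their median log2 fold change was 0.032, beside −0.0007 over all genes tested. Dnah17, an outer dynein arm heavy chain, was at 4.50 ± 0.566 CPM with saline and 3.33 ± 0.216 CPM with vasostatin-2 (SD, n = 3 each; log2 fold change −0.43, SE 0.17; edgeR adjusted p = 0.684). Dnah10, an inner arm heavy chain, was at 1.33 ± 0.151 and 2.23 ± 0.563 CPM (log2 fold change 0.74, SE 0.27; edgeR adjusted p = 0.681). The 2 most abundant by CPM, Rsph3a and Cfap20, had log2 fold changes of −0.024 and 0.063. By mean TPM over the 6 libraries Cfap53 ranked 1st of 69, at 70.2, followed by Cfap20 at 39.7, and the median of the other 68 was 0.282. The Cfap53 value rests on its long implied length, and which entry carried its counts was not resolved. Foxj1, the master regulator of motile cilia, had at most 4 estimated counts in any library, as did Mcidas, Dynlrb2 and Tekt1, while Tppp3, which other cells also express, was between 52.4 and 195 CPM. The most abundant gene of the set was thus measured in tissue where defining transcripts of ciliated cells were at or near 0.

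Genes of intraflagellar transport and of the primary cilium, the single sensory cilium of most cells, were read as a second set. Of 41, 40 were tested, 0 were lower and 2 were higher at an unadjusted p of 0.05, and the median log2 fold change was 0.083. Ift46, a subunit of the transport train, was at 42.0 ± 1.80 CPM with saline and 47.7 ± 1.57 CPM with vasostatin-2 (SD, n = 3 each; log2 fold change 0.18, SE 0.066; edgeR adjusted p = 0.681). The centriolar satellite scaffold Pcm1 and the transport motor subunit Kif3b had log2 fold changes of −0.041 and −0.09, and that of the small GTPase Arl3 was −0.13. The second higher gene was Ttc8, a subunit of the BBSome coat (log2 fold change 0.27, SE 0.11), named after its value was seen. No gene of this set was called.

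Gcnt2 was set beside 34 other enzymes that branch, extend or cap glycans. Of the 31 tested none was called, 3 were lower and 1 higher at an unadjusted p of 0.05, with a median log2 fold change of −0.016. Mgat4a, which adds a branch to N-glycans, was at 38.0 ± 2.16 CPM with saline and 30.0 ± 2.11 CPM with vasostatin-2 (SD, n = 3 each; log2 fold change −0.34, SE 0.082; edgeR adjusted p = 0.519). B3gnt7, which extends lactosamine chains, was at 3.81 ± 0.443 and 6.08 ± 1.51 CPM (log2 fold change 0.67, SE 0.22; edgeR adjusted p = 0.635). The other lower genes, named after their values were seen, were B3gnt5 (log2 fold change −0.86, SE 0.21), which starts lacto-series glycolipids, and B4galt3 (−0.24, SE 0.07). The abundant galactosyltransferase B4galt1 and sialyltransferase St3gal1 had log2 fold changes of −0.20 and 0.13. Gcnt2 ranked 16th of 35 by mean TPM, at 30.5, where B4galt1 was highest at 102.

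Spata13 was set beside 63 exchange factors, GTPases and effectors of the Rac and Cdc42 pathway, all tested. None was called, 3 were lower and 1 higher at an unadjusted p of 0.05, and the median log2 fold change was 0.0063. Cdc42 itself was at 713 ± 7.27 CPM with saline and 694 ± 25.4 CPM with vasostatin-2 (SD, n = 3 each; log2 fold change −0.04, SE 0.08). The scaffold Iqgap1 had a log2 fold change of 0.0063. The effector kinase Pak2 was at 142 ± 1.43 and 128 ± 2.04 CPM (log2 fold change −0.15, SE 0.057; edgeR adjusted p = 0.681), and Fgd2, a Cdc42 exchange factor of myeloid cells, at 56.7 ± 4.90 and 68.8 ± 2.1 CPM (log2 fold change 0.28, SE 0.08; edgeR adjusted p = 0.586). The other lower genes, named after their values were seen, were the exchange factors Dock5 (log2 fold change −0.28, SE 0.11) and Kalrn (−0.18, SE 0.068). Spata13 ranked 45th of 64 by mean TPM, at 8.77.

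Zbtb8b was set beside 40 other ZBTB genes, all tested. None was called, 3 were lower and 0 higher at an unadjusted p of 0.05, and the median log2 fold change was −0.067, with 29 below 0 and 11 above. Zbtb38, a methyl-CpG binding repressor, was at 36.8 ± 2.11 CPM with saline and 31.1 ± 1.42 CPM with vasostatin-2 (SD, n = 3 each; log2 fold change −0.24, SE 0.074; edgeR adjusted p = 0.605). Zbtb20 was at 11.1 ± 1.73 and 13.6 ± 1.23 CPM (log2 fold change 0.29, SE 0.14; edgeR adjusted p = 0.714). Zbtb1 (log2 fold change −0.29, SE 0.10) and Zbtb21 (−0.18, SE 0.071) were the other lower genes, named after their values were seen. The most abundant members, Zbtb7a and Zbtb7b, had log2 fold changes of −0.03 and 0.036. Zbtb8b ranked 4th of 41 by mean TPM, at 30.5, below Zbtb7b, the highest, at 67.6.

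Olfr1033 was set beside 73 other odorant receptor genes, of which only 5 passed the filter on low counts. None of the 5 was lower or higher at an unadjusted p of 0.05, and their median log2 fold change was 0.16, which was negative under several alternatives. Olfr558 was at 7.18 ± 3.06 CPM with saline and 5.49 ± 0.181 CPM with vasostatin-2 (SD, n = 3 each; log2 fold change −0.39, SE 0.29), and Olfr613 at 4.43 ± 0.0816 and 5.02 ± 0.744 CPM (log2 fold change 0.18, SE 0.16). By mean TPM Olfr1033 was at 154, the next receptor Olfr558 at 4.55, and the median of the other 73 at 0.0367. Its level thus stood far above that of every other receptor gene in the table. DESeq2 and limma-voom, like edgeR, called 0 genes in each of these 6 sets.

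**Figure D4:**
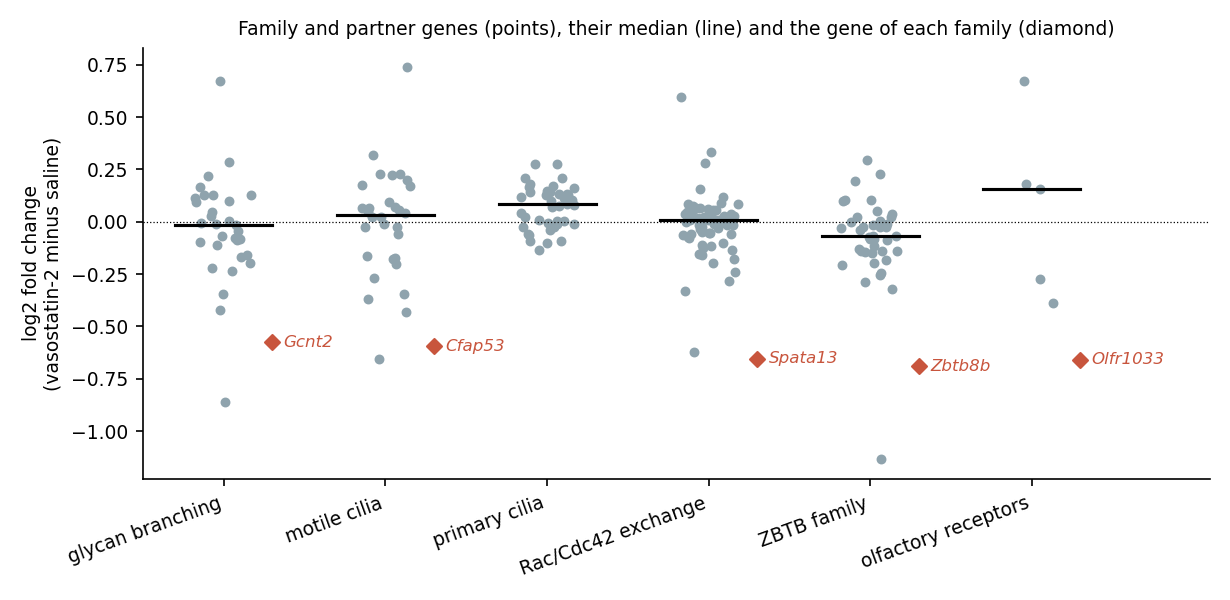
Log2 fold change (vasostatin-2 minus saline) of the tested genes in each of the 6 sets (grey points, spread sideways at random), their median (black line) and, as red diamonds, the 5 genes set beside them. The set medians run from −0.067 to 0.16, while the 5 diamonds lie between −0.58 and −0.69.

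Neighbours on the chromosome were read for each gene, the nearest 5 on either side. Of these 50, 35 were tested, none was called, 3 were lower and 1 higher at an unadjusted p of 0.05, and their median log2 fold change was 0.0025. The 4 tested beside Olfr1033 had a median of −0.44, with 2 of the lower genes among them. Genes whose deposited coordinates span over 5 Mb were left out of the neighbours. Apart from those, the only deposited gene that overlapped one of the 5 was Pak1ip1. By its deposited coordinates it lies on the same strand as Gcnt2 and overlaps its end. Of the 3 transcript entries of Pak1ip1, 2 were from RNAcentral, and which of them reach Gcnt2 was not tested. Pak1ip1 was at 40.9 ± 3.98 CPM with saline and 38.2 ± 3.58 CPM with vasostatin-2 (SD, n = 3 each; log2 fold change −0.098, SE 0.10). The coordinates of 5 genes left out for their span, between 146 and 149.7 Mb and so nearly the whole chromosome, cover Zbtb8b. They were Gm13035, Gm13201, Gm42355, Zfp534 and Zfp984, and the most abundant of them, Zfp984, was at 34.1 ± 6.50 CPM with saline and 34.1 ± 2.28 CPM with vasostatin-2 (SD, n = 3 each). On the other side of Gcnt2, Tfap2a had too few counts to be tested.

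Next to Cfap53, the methyl-CpG binding protein gene Mbd1 was at 62.2 ± 5.77 and 56.4 ± 2.74 CPM (log2 fold change −0.14, SE 0.087), and the myosin gene Myo5b had a log2 fold change of 0.64 (SE 0.43) at about 1 CPM. Next to Spata13, Amer2 was at 2.48 ± 1.20 and 0.981 ± 0.598 CPM (log2 fold change −1.33, SE 0.53; edgeR adjusted p = 0.684), and C1qtnf9 had a log2 fold change of −0.12. Next to Zbtb8b, its family member Zbtb8a and the gene Bsdc1 had log2 fold changes of −0.066 and −0.004. Next to Olfr1033, Gm52520 had a log2 fold change of −0.22 (SE 0.62), and Olfr1034 had too few counts to be tested. The other neighbours past an unadjusted p of 0.05, named for that reason after their values were seen, were Aplnr, the apelin receptor gene, and Lrrc55 near Olfr1033 (log2 fold changes −0.67 and −0.94), whose starts lie at −884 and −869 kb from its own, and Sync near Zbtb8b (1.15, SE 0.43).

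Spata13 holds another annotated gene. Its deposited start lies 16020 bases before the RefSeq start of 60485168, and GENCODE M21 places the long non-coding RNA Gm29266 within it on the same strand, from 60485208 to 60599031. Gcnt2 holds 1 same-strand gene, Mir5124a, among 6 that overlap it in GENCODE. Whether reads of Gm29266 were counted for Spata13 was not tested.

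**Figure D5:**
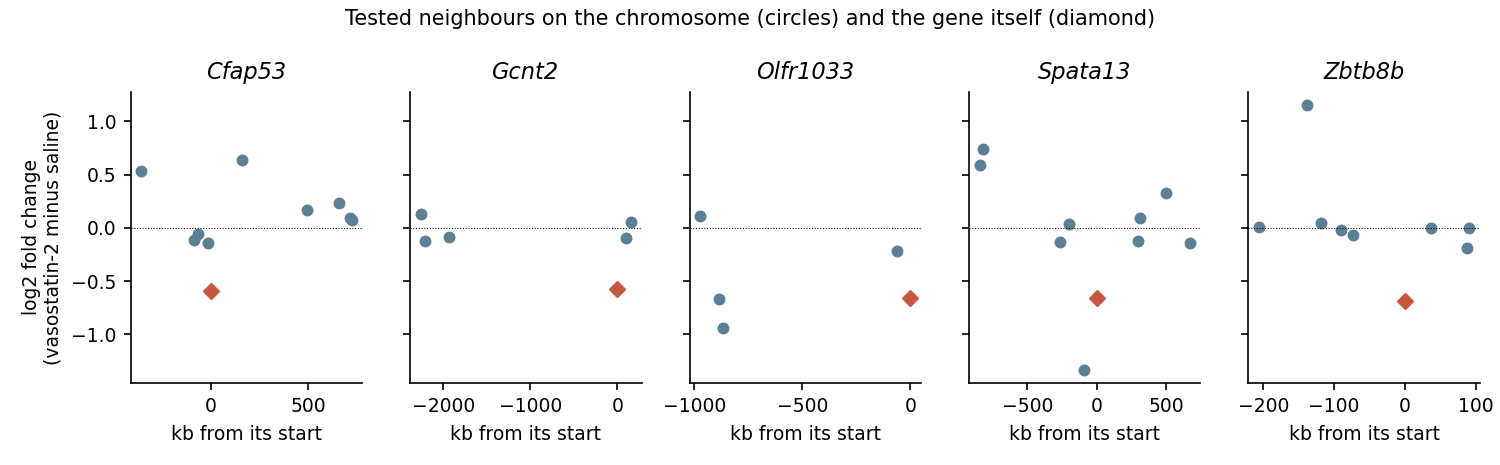
Log2 fold change (vasostatin-2 minus saline) of the tested neighbours of each gene (blue circles) against the distance of their starts in kb, with the gene itself as a red diamond at 0. Over all panels the neighbours have a median of 0.0025, but the 4 tested beside Olfr1033 have a median of −0.44, and those farthest from 0 have a few CPM or less, apart from Aplnr beside Olfr1033.

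The genes whose levels were most like those of the 5 over the 6 libraries were chosen by the mean Pearson r of their log2 CPM with the 5, leaving out genes with a mean below 1 CPM. The 8 with the highest value were Coil (0.981), Mga (0.979), Zfp729a (0.978), Smox (0.975), Taf2 (0.970), Aplnr (0.970), Hmbox1 (0.969) and Gpr35 (0.963). The points are 6 libraries in 2 separate groups, so these values mostly restate the gap between the groups. With log2 CPM computed without scaling factors and with 0.1 added, 5 of the 8 stayed in the list, and Gabpb1, Pak2 and Bcl6b took the other places.

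Likeness did not mean a similar size of difference. Aplnr was at 185, 196 and 218 CPM with saline and at 144, 115 and 117 CPM with vasostatin-2, a log2 fold change of −0.67 (SE 0.11) as large as those of the 5. The zinc finger gene Zfp729a was at 73.5 ± 3.00 and 53.6 ± 2.21 CPM, and the orphan receptor gene Gpr35 at 42.6 ± 2.67 and 31.7 ± 2.59 CPM (SD, n = 3 each). Hmbox1 was at 85.6 ± 0.665 and 80.3 ± 1.29 CPM, a log2 fold change of −0.092 (SE 0.055), while its deposited TPM was 22.2 and 22.4 on average. Of these 8 genes, 5 had counts that were not whole in any library, beside 30.7% of all tested genes. An RNAcentral entry was listed for 4 of the 8, beside 56.0% of the tested genes other than the 5.

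Markers of the cell types in the vessel were summed per library. Smooth muscle markers were present in every library, with a summed level of 968 to 1919 CPM with saline and 964 to 2339 CPM with vasostatin-2, all 10 with a fold change above 0. Neutrophil markers summed to 361 to 607 CPM and 198 to 440.3 CPM, all 8 below 0, with Ly6g at 0 in part of the libraries. Red cell markers summed to 1808 to 12366 CPM and 305 to 2382 CPM, all 7 below 0. T and NK cell markers summed to 28.0 to 54.6 CPM and 22.3 to 29.9 CPM, all 8 below 0. Endothelial markers summed to 1909 to 2319 CPM with saline and 1963 to 2234 CPM with vasostatin-2, 4 below 0 and 4 above. B cell markers summed to 4.34 to 8.53 CPM and 4.32 to 8.71 CPM, 2 below 0 and 2 above. Adipocyte markers summed to 2033 to 4220 CPM and 3157 to 4763 CPM, 1 below 0 and 4 above. Fibroblast markers summed to 2227 to 3368 CPM and 3366 to 3814 CPM, all 7 above 0 and with sums that overlapped by little, and macrophage markers to 4341 to 5363 CPM and 5133 to 5730 CPM, 6 of 8 above 0. Among the 13 lists read, only platelet markers did not overlap in their sum, at 269 to 376 CPM and 207 to 239 CPM, with 3 of 5 below 0. Schwann cell markers stood out in saline replicate 3 (901 CPM) and skeletal muscle markers in vasostatin-2 replicate 3 (1071 CPM). The part of these cells in the levels of the 5 genes was not tested. Without any 1 of the 6 libraries the log2 fold changes of the 5 genes ranged from −0.52 for Gcnt2 to −0.80 for Zbtb8b.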

How the data were processed

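The deposited table gives, per gene and library, an estimated count, an FPKM and a TPM value made by the authors, and the authors' own comparison (a log2 change with its p-value and q-value), deposited beside them and not used. HISAT2 2.1.0, DESeq2 1.26.0 and the build GRCm38.p6 are listed in the submitters' processing notes. The counting tool and its strand setting are not named there. Per the labels' protocols, RNA was enriched with oligo(dT) beads.

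Estimated counts were rounded and tested with edgeR 4.0.16 (R 4.3.3): filterByExpr left 14557 genes, TMM factors were 0.985 to 1.01, the quasi-likelihood fit was robust with treatment alone as a term, and Benjamini-Hochberg adjustment ran over all genes. The depth was 19333730 to 20105995 estimated counts, so 3 counts are 0.149 to 0.155 CPM. Log2 CPM used a prior count of 2. Alternatives were other scalings, filters and tests (DESeq2 1.42.0, limma-voom in limma 3.58.1), the replicate number as a block and leaving out each library. The edgeR p-values set the difference between the groups against the spread among the 3 libraries within each group. The scripts were tested on simulated data.

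The 5 genes and all lists were chosen with earlier results of these data known. Named genes are the 5, their nearest and overlapping neighbours, and per list the 2 most abundant and the 1 with the smallest unadjusted p in each direction with a mean of at least 1 CPM, plus the 8 most alike. The comparison with GENCODE lengths, the partner search, the shared stretches and the promoter windows were chosen after seeing the data. A list of small structured non-coding RNA genes had 0 genes in the table.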

Additional observations from a re-analysis of the deposited data

How the results depend on the processing

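The log2 fold changes of the 5 genes were negative in all 85 alternatives and moved by less than 1 SD in each, between −0.80 and −0.52. The count of called genes was 0 with edgeR under every other scaling and filter and with limma-voom, 113 with DESeq2, and 0 to 2 when 1 library was left out (2 without saline replicate 2). At an unadjusted p of 0.05, leaving out 1 library gave 251 (without vasostatin-2 replicate 2) to 841 lower genes and 245 to 813 higher ones, and limma-voom gave 820 lower and 755 higher. The glycan list's median ranged from −0.087 (without saline replicate 2) to 0.023 (without saline replicate 3), and the Rac and Cdc42 list's from −0.035 to 0.008. The odorant receptor median was −0.24 without a low-count filter, −0.059 with a filter of 1 CPM and from −0.12 (without saline replicate 2) to 0.23 with 1 library left out; it rests on few low counts. The log2 difference in implied length of Spata13 was 0.0128, from −0.0075 (reversed, without saline replicate 2) to 0.0375 without single libraries. The other lists and implied lengths kept their direction, but leaving out 1 library moved the motile cilia median from 0.032 to 0.007 (without saline replicate 1), the primary cilia median from 0.083 to 0.051 (without vasostatin-2 replicate 3) and the ZBTB median from −0.067 to −0.031 (vasostatin-2 replicate 3 left out) or −0.11 (saline replicate 1 left out). The log2 difference in implied length of Olfr1033, 0.0041, ran from 0.0024 (without saline replicate 2) to 0.0063 (without vasostatin-2 replicate 2), that of Zbtb8b, −0.0008, from −0.0015 (without vasostatin-2 replicate 3) to −0.0001, and that of Cfap53, 0.0005, from 0.0003 to 0.0007. The cause of these shifts was not tested.

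Libraries with the same replicate number did not deviate together (r = −0.12, 0.03 and 0.03), and those with different numbers gave r from −0.22 to 0.22. Whether the samples are paired cannot be decided from 3 libraries per group, and the main fit used no pairing. With the replicate number as a block, edgeR called 0 genes, 482 were lower and 408 higher at an unadjusted p of 0.05, and the fold changes of Gcnt2 and Zbtb8b were −0.57 and −0.70.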

Other observations

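Cfap53 was not alone in being quantified with a length far beyond its annotation. Among genes with a ratio, 294 (2.25%) had an implied length over 1.5 times their longest GENCODE M21 transcript and 162 (1.24%) over 2 times, a limit chosen after the data had been seen. Leaving out Cfap53, 293 of these genes were tested. Their median log2 fold change was −0.042, beside −0.00059 over the 14552 tested genes other than the 5. At an unadjusted p of 0.05, 16 of them were lower and 4 higher, against 556 and 479 of the 14552. An RNAcentral entry was listed for 68.3% of the 293 and 56.0% of the 14552. The difference between these shares was not tested.

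The 4 of these 293 genes with the smallest unadjusted p were all lower with vasostatin-2, and none passed edgeR's adjusted threshold. Vash1, which encodes the angiogenesis inhibitor vasohibin, was at 45.5, 38.0 and 37.3 CPM with saline and at 28.3, 24.8 and 23.9 CPM with vasostatin-2, with an implied length 2.38 times its longest transcript. Wdr92, a dynein assembly factor, was at 104, 116 and 132 CPM and at 76.2, 69.9 and 81.2 CPM, with a length ratio of 1.69. Rnf125, a ubiquitin ligase, had a log2 fold change of −0.44 and a length ratio of 3.52, and C1qtnf1, a secreted relative of adiponectin, a log2 fold change of −0.36 and a ratio of 1.71. Wdr92 has a single transcript entry in the table and none from RNAcentral, while Vash1, Rnf125 and C1qtnf1 have 3, 4 and 14 entries.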
